A study of Mus musculus with 16 samples.

Results

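This account covers 8 mouse genes around CaM kinase II in sorted cells of the olfactory mucosa. They are Camk2n1 and Camk2n2, which encode inhibitor proteins of the kinase, Camk2a, Camk2b, Camk2d and Camk2g, which encode its subunits, and Calm2 and Calm3, which encode the calcium sensor calmodulin. Each gene had 1 probe set with that symbol alone, so the 8 genes are 8 of 22206 tested probe sets. Camk2n1 was chosen from its own values on these arrays, where its signal with the odor stood out from its signal with filtered air. Its levels and differences are therefore given as a description with no test. The other 7 genes were taken as its relatives by name, and their differences were tested.

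RNA from cells sorted out of dissociated olfactory mucosa was measured on Clariom S arrays. The donors were 24 mice, males and females aged 7 to 12 weeks, with the S100a5-tauGFP reporter. It follows S100a5, a gene that olfactory sensory neurons transcribe when they have been active. Mice were pooled by 3, with 4 pools per stimulus, and each pool gave 1 GFP+ and 1 GFP- array. The assay asks which receptors, and here which other transcripts, become enriched in reporter-positive cells with an odor.

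The 4 groups of 4 arrays were GFP- and GFP+ cells of vehicle mice, which received filtered air, and GFP- and GFP+ cells of odor mice. Each animal was kept singly for 40 h in a chamber flushed at 3.1 L/min, and the stimulus, started at 26 h, came as pulses of 10 s at intervals of 20 min. Every mouse of every group carried the reporter. The labels of the samples give the odor as 1-pentanethiol, as does the title, but the design text says bourgeonal; the labels were followed. The sort was on GFP alone, so the GFP- fraction holds every cell type without the reporter as well as neurons that were not recently active, and a pool averages 3 animals.

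CaM kinase II is a serine/threonine kinase that is switched on when calcium-loaded calmodulin binds its subunits, and that can then phosphorylate itself and stay active after calcium has fallen. The Camk2n1 and Camk2n2 proteins bind the activated kinase and block it. In olfactory sensory neurons an odorant opens cyclic nucleotide-gated channels, calcium enters, and calmodulin and CaM kinase II take part in the feedback that limits the response and in calcium-dependent transcription.

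Values are log2 signals of a probe set, so a difference of 1 is a doubling of signal, and signals are not compared between genes. The negative control entries of the arrays had medians from 5.99 to 6.48, except for 7.28 on the GFP+ array of vehicle pool 2, which stood apart. Values of Camk2n1, list counts and calls that rest on this array are also given without vehicle pool 2. Markers of mature olfactory neurons averaged 16.96 to 17.23 on every array. Over the 10 markers the median GFP+ minus GFP- difference was 0.18 in vehicle and 0.15 in odor pools, beside 0.11 and 0.13 for all probe sets. Among them, Ano2 differed by 0.36 ± 0.11 (SE) and 0.48 ± 0.11. Omp, the marker protein gene of these neurons, differed by 0.05 ± 0.10 in vehicle and 0.03 ± 0.10 in odor pools. Its group means, 18.27 to 18.35, lie close to the top of the scale, 18.85. Neutrophil markers averaged 13.54 to 14.84 on GFP- and 6.56 to 7.68 on GFP+ arrays, and all 12 were lower in GFP+ cells, so markers of other cells differ between the fractions as well as the reporter's gene. In such sorted pools, fewer cells of a type and less RNA per cell cannot be told apart. The labels name pools of different mice, and each group holds 1 array per pool. In the fit of the 4 groups, the p-values measure the spread of arrays within the groups and treat the fractions of a pool as separate. Only the test of pool means uses 1 value per pool. The number of arrays limits the precision.

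Camk2n1 was higher with the odor than with filtered air in both fractions, and more so in GFP+ cells. In GFP+ cells of the vehicle pools 1 to 4 its signal was 7.89, 8.01, 8.68 and 8.02. In GFP+ cells of the odor pools 1 to 4 it was 10.49, 11.21, 10.46 and 11.16. The lowest odor array therefore lay above the highest vehicle array, and the means were 8.15 ± 0.36 (SD, n = 4) and 10.83 ± 0.41 (SD, n = 4). The vehicle GFP+ arrays lay 0.73 to 2.34 above their negative control medians, so the fold is one over a dim vehicle signal. The difference was 2.68 ± 0.28 (SE), a 6.41-fold higher signal. It was the fifth highest of the differences of all 22206 probe sets in this comparison, and 2 among the 21126 outside the odorant receptors when ranked from the highest.

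In GFP- cells the odor difference of Camk2n1 was smaller. The vehicle pools 1 to 4 had 8.60, 8.69, 9.12 and 8.08, with a mean of 8.62 ± 0.43 (SD, n = 4). The odor pools 1 to 4 had 10.64, 9.81, 9.42 and 9.60, with a mean of 9.86 ± 0.54 (SD, n = 4). These groups did not overlap either, but the gap between them was narrow, from 9.12 to 9.42, and odor pool 1 was the highest of its group. The difference was 1.24 ± 0.28 (SE), or 2.37-fold, and ranked 3 of 22206. Without odor pool 1 it was 0.99.

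**Figure D1:**
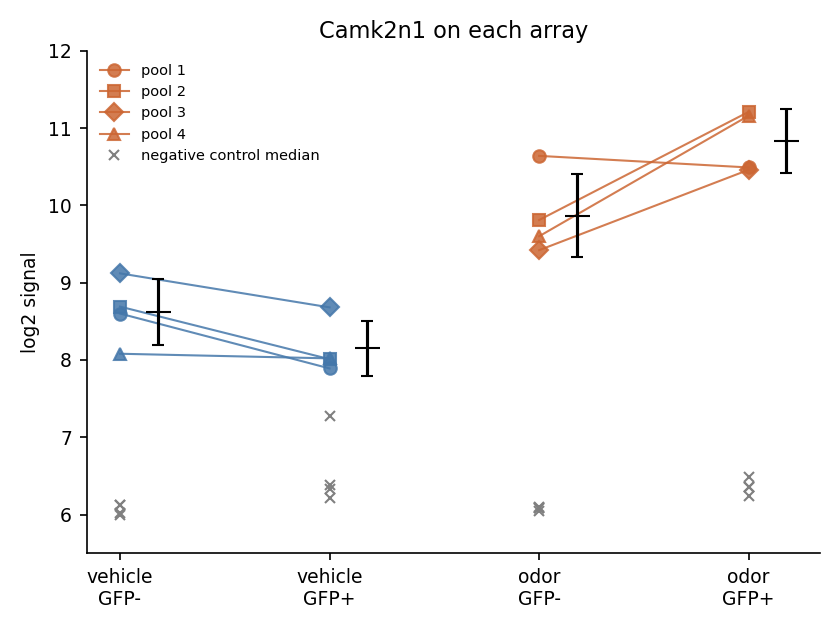
Log2 signal of Camk2n1 on each of the 16 arrays by group, with the GFP- and GFP+ array of a pool joined by a line, the group mean ± SD (n = 4) beside the points in black, and the negative control median of each array as grey crosses. The vehicle lines fall from GFP- to GFP+ and 3 of the 4 odor lines rise, so that GFP+ cells have the highest mean with the odor (arrays at 10.46 to 11.21) and the lowest with filtered air (arrays at 7.89 to 8.68).

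The order of the 4 group means was GFP+ odor, GFP- odor, GFP- vehicle and GFP+ vehicle, from the highest to the lowest. GFP+ and GFP- odor arrays overlapped, as did GFP- and GFP+ vehicle arrays, whereas no odor array of either fraction overlapped with a vehicle array. The relation between the fractions of a pool went opposite ways with the stimulus. GFP+ minus GFP- was -0.71, -0.68, -0.44 and -0.06 in the vehicle pools 1 to 4. It was -0.15, 1.40, 1.05 and 1.56 in the odor pools 1 to 4. Camk2n1 was thus lower in GFP+ cells of all 4 vehicle pools and higher in GFP+ cells of 3 of the 4 odor pools, with pool 1 as the exception.

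The mean difference between the fractions was -0.47 ± 0.28 (SE) in vehicle pools and 0.96 ± 0.28 in odor pools. The gain, the odor difference minus the vehicle difference, was 1.44 ± 0.39, and no probe set outside the odorant receptors had a higher one. Averaging both fractions to 1 value per pool gave 10.56, 10.51, 9.94 and 10.38 in the odor pools and 8.24, 8.35, 8.90 and 8.05 in the vehicle pools. These pool means differed by 1.96 ± 0.19 (SE), or 3.9-fold, and ranked 2 of 22206.

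On the GFP+ array of vehicle pool 2, which stood apart in its controls, Camk2n1 was 0.73 above the negative control median. Without that pool the odor difference in GFP+ cells was 2.64, the vehicle difference between the fractions -0.40, the gain 1.37 and the difference of pool means 1.95. The vehicle difference between the fractions is the value that scaling moves most: it was -0.13 when all arrays were set to the same median -0.21 after quantile normalization and -0.70 with odorant receptor medians set equal, against -0.47 in the deposited values. Its sign stayed below 0 in all of the alternatives run.

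None of the other 7 genes passed the threshold, an adjusted p under 0.05 by limma over all tested probe sets, in any comparison of odor with vehicle. In GFP+ cells their differences ran from -0.22 to 0.05 with a median of 0.00, beside 0.01 for all probe sets, and 0 of 7 had an unadjusted p under 0.05. Of all probe sets, 0.0766% were called higher and 0% lower in that comparison. In GFP- cells they ran from -0.34 to 0.05, again with 0 of 7 at an unadjusted p under 0.05, where 0.00901% of all probe sets were called higher and 0.0405% lower. Their gain ran from -0.19 to 0.19 and their pool mean differences from -0.27 to 0.04, each with 0 of 7 at an unadjusted p under 0.05. For the gain 0.063% of all probe sets were called higher and 0% lower, and for the pool means 0.0135% were called higher and 0.0045% lower. With so few calls among all probe sets, 0 of 7 is close to the background. The intervals below give what differences the data allow.

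**Figure D2:**
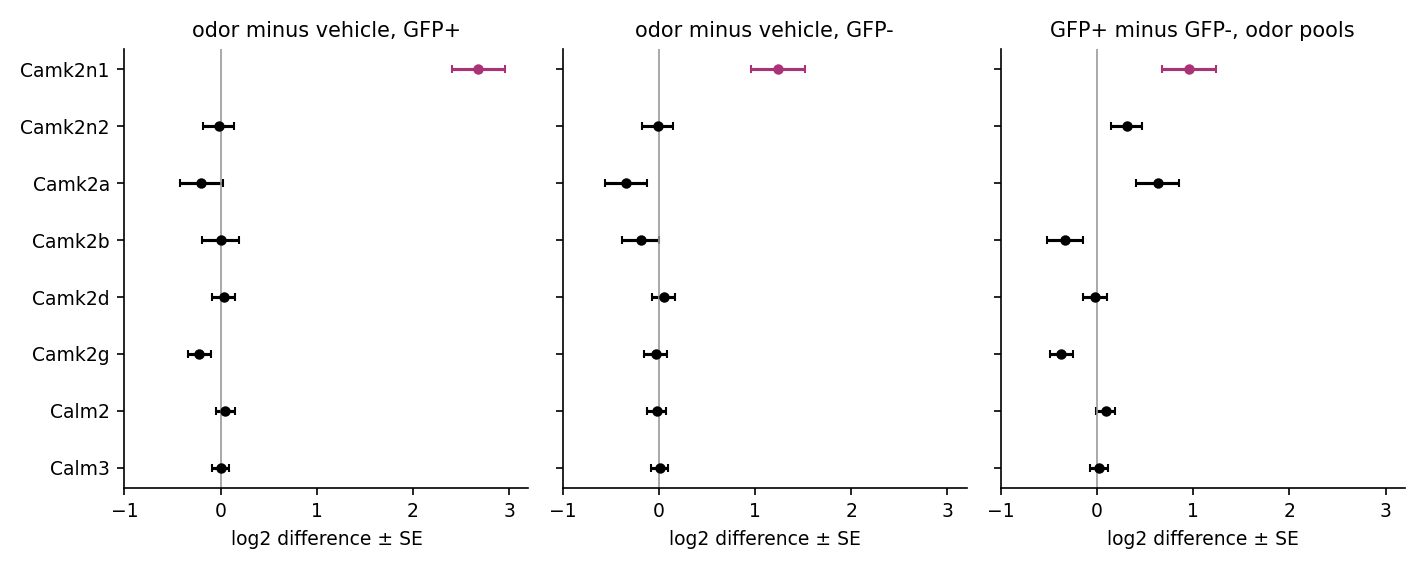
Log2 differences ± SE of the 8 genes from the limma fit for odor minus vehicle in GFP+ cells, odor minus vehicle in GFP- cells, and GFP+ minus GFP- in odor pools. Camk2n1, in purple, lies at 2.68, 1.24 and 0.96, while the odor differences of the other 7 genes lie between -0.34 and 0.05.

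Camk2n2, which encodes the second inhibitor, did not pass in any odor comparison. In GFP+ cells it was 8.66, 7.87, 8.26 and 8.44 in the vehicle pools 1 to 4 and 8.32, 8.22, 8.20 and 8.43 in the odor pools 1 to 4. The odor values lay within the vehicle range. The difference was -0.02 ± 0.16 (SE; 95% interval -0.36 to 0.33; limma adjusted p = 0.995), and without vehicle pool 2 it was -0.16. In GFP- cells the odor pools had 8.26, 7.93, 7.83 and 7.92 and the vehicle pools 8.21, 7.89, 7.73 and 8.13, and the difference was -0.01 ± 0.16 (95% interval -0.35 to 0.34). The signal in GFP+ cells was above that in GFP- cells by 0.32 ± 0.16 in vehicle and 0.31 ± 0.16 in odor pools, which did not pass (limma adjusted p = 0.177 and 0.18). It did pass with array medians set equal, at 0.67 and 0.64, and after quantile normalization, at 0.61 and 0.62 (limma adjusted p from 0.00269 to 0.00534). Camk2n2 lay 0.59 above the control median on the GFP+ array of vehicle pool 2, so it is a dim signal there.

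Camk2a, the alpha subunit known best from forebrain neurons, was higher in GFP+ than in GFP- cells of the odor pools. GFP+ cells of the odor pools 1 to 4 had 10.41, 10.19, 10.21 and 9.83, and GFP- cells had 9.77, 9.46, 9.52 and 9.36. The groups did not overlap, and all 4 pools went the same way, by 0.64, 0.73, 0.68 and 0.47. The difference was 0.63 ± 0.22 (SE), or 1.55-fold, with a limma adjusted p of 0.047. The call is a narrow one: with the pool of mice as a block the adjusted p was 0.0553, and it was not called without odor pool 1, 2, 3 or 4 (adjusted p 0.104, 0.164, 0.144 and 0.0776), without vehicle pool 1 (0.0583), or with odorant receptor medians set equal (0.188).

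In vehicle pools Camk2a was 10.55, 10.72, 10.18 and 9.98 in GFP+ and 9.67, 9.58, 10.62 and 9.62 in GFP- cells. Pool 3, where GFP- cells had 10.62, ran against the other 3 pools, and the difference of 0.48 ± 0.22 did not pass (limma adjusted p = 0.132). Without vehicle pool 3 it was 0.79 and passed (limma adjusted p = 0.00986), without vehicle pool 2 it was 0.27, and with array medians set equal it was 0.83 and passed (adjusted p = 0.00492). The gain was 0.15 ± 0.31 (95% interval -0.51 to 0.80), so a difference between the stimuli in the sort was not shown. With the odor, Camk2a differed from vehicle by -0.20 ± 0.22 in GFP+ cells (95% interval -0.66 to 0.27) and by -0.34 ± 0.22 in GFP- cells (95% interval -0.81 to 0.12). Neither passed.

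Camk2b, the beta subunit, which also binds actin, gave a dim signal. In vehicle pools 1 to 4 it had 7.84, 6.96, 7.66 and 7.13 in GFP+ and 7.97, 7.89, 7.72 and 8.06 in GFP- cells. All 4 pools were lower in GFP+ cells, by values from -0.94 to -0.06, and the groups overlapped. The difference was -0.52 ± 0.19 (95% interval -0.91 to -0.12) with a limma adjusted p of 0.0602, so it did not pass. The low value of 6.96 lay on the array of vehicle pool 2, 0.32 under that array's control median, and without this pool the difference was -0.38 (limma adjusted p = 0.221). It did pass without vehicle pool 1 (-0.64, adjusted p = 0.0406 by limma) and without vehicle pool 3 (-0.67, adjusted p = 0.0461), with receptor medians set equal (-0.74, adjusted p = 0.00679) and with dim probe sets left out (adjusted p = 0.0465).

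The odor pools repeated the direction for Camk2b at a smaller size. GFP+ cells had 7.17, 7.56, 7.54 and 7.30 and GFP- cells 7.58, 8.04, 7.82 and 7.43, a difference of -0.33 ± 0.19 that did not pass (limma adjusted p = 0.223). It was 0.00 with array medians set equal and after quantile normalization. Odor minus vehicle was 0.00 ± 0.19 in GFP+ cells (95% interval -0.40 to 0.39) and -0.19 ± 0.19 in GFP- cells (95% interval -0.59 to 0.20).

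Camk2g, the gamma subunit, was lower in GFP+ than in GFP- cells of the odor pools. GFP+ cells of the odor pools 1 to 4 had 10.00, 10.06, 10.12 and 10.20, and GFP- cells had 10.50, 10.37, 10.62 and 10.35. The groups did not overlap, and all 4 pools went the same way, from -0.51 to -0.15. The difference was -0.37 ± 0.12 (SE), a 1.29-fold lower signal, with a limma adjusted p of 0.0319. It was not called with the pool block (adjusted p = 0.0617), without odor pool 1, 2 or 3 (0.139, 0.0936 and 0.131), or under any of the other scalings (array medians equal -0.04, quantile -0.30, receptor medians -0.43).

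In vehicle pools Camk2g had 10.51, 10.30, 10.12 and 10.33 in GFP+ and 10.57, 10.57, 10.57 and 10.28 in GFP- cells. Its difference of -0.18 ± 0.12 did not pass (limma adjusted p = 0.303). Its odor difference in GFP+ cells was -0.22 ± 0.12 (95% interval -0.47 to 0.03), which had the lowest unadjusted p of the 7 genes there, 0.0761 by limma, and an adjusted p of 0.731. In GFP- cells the odor difference was -0.03 ± 0.12 (95% interval -0.28 to 0.21).

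Camk2d, the delta subunit, gave a bright and even signal. All 16 arrays lay between 16.61 and 17.04, above 99.6% of the tested probe sets in the mean. With the odor it differed by 0.03 ± 0.12 in GFP+ cells (95% interval -0.22 to 0.28) and by 0.05 ± 0.12 in GFP- cells (95% interval -0.21 to 0.30). Between the fractions it differed by 0.00 ± 0.12 in vehicle and -0.02 ± 0.12 in odor pools (95% intervals -0.26 to 0.25 and -0.27 to 0.23), and this is the gene whose sort difference turned and passed under another scaling, at 0.34 and 0.31 with array medians set equal.

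The calmodulin genes, whose products are the same protein, gave bright signals with the smallest spread of the 8 genes over the arrays. Calm2 lay between 17.73 and 17.97 and Calm3 between 17.27 and 17.48 on the 16 arrays. In GFP+ cells Calm2 differed between odor and vehicle by 0.05 ± 0.10 (95% interval -0.16 to 0.25) and Calm3 by 0.00 ± 0.09 (95% interval -0.20 to 0.20). In GFP- cells the values were -0.02 ± 0.10 (95% interval -0.23 to 0.18) for Calm2 and 0.01 ± 0.09 (95% interval -0.19 to 0.21) for Calm3. The Calm2 arrays of the odor pools did not overlap between the fractions, with 17.90 to 17.95 in GFP+ and 17.75 to 17.87 in GFP- cells, yet the difference was 0.09 ± 0.10 and did not pass (limma adjusted p = 0.557). With array medians set equal the sort differences of both genes passed, at 0.36 and 0.41 for Calm2 and 0.38 and 0.35 for Calm3 in vehicle and odor pools. Signals this high lie close to the top of the scale, 18.85, and how far the arrays can show a rise there was not tested.

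**Figure D3:**
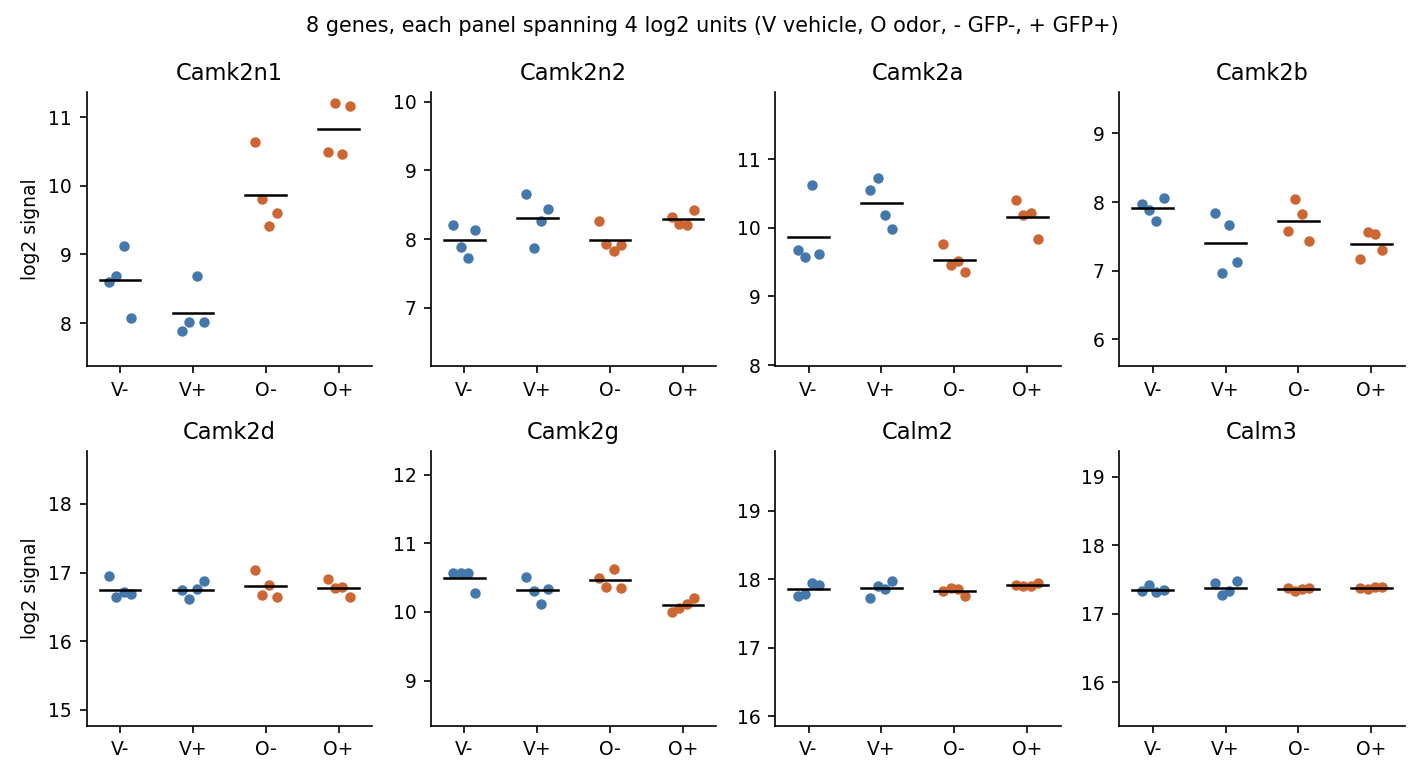
Log2 signal of the 8 genes on each array, 1 panel per gene, each spanning 4 log2 units, with vehicle arrays in blue, odor arrays in orange and the group mean (n = 4) as a bar. Camk2n1 spreads over 3.32 units across the arrays, while Camk2d, Calm2 and Calm3 spread over 0.43, 0.24 and 0.21.

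Between the fractions, then, 0 of the 7 tested genes passed in vehicle pools by limma (2 at an unadjusted p under 0.05, Camk2a and Camk2b), where 9.34% of all probe sets were called higher and 11.8% lower in GFP+ cells. In odor pools 1 of 7 was called higher and 1 of 7 lower, where 11.3% of all probe sets were called higher and 11.9% lower. The shares of the 7 genes are near this background. With the pool of mice as a block, 0 of 7 passed in either. The split of all calls depends on the scaling: in vehicle pools 2074 were higher and 2617 lower as deposited, against 13003 and 2008 with array medians set equal, 3665 and 2501 after quantile normalization, and 515 and 3237 with receptor medians set equal. In odor pools the split was 2518 and 2649 as deposited, and 13098 and 2009, 3594 and 2521, and 865 and 2414 under the same settings.

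The rest of the calcium and calmodulin pathway was taken from 8 lists with 103 genes outside the members, of which 95 were measured. None of the 95 passed in odor minus vehicle in GFP+ cells, in GFP- cells, in the gain or in the pool means by limma, as deposited or under any alternative run. In these comparisons at most 0.0766% of all probe sets were called in either direction, so 0 of 95 is close to the background. Of the 95 genes, 69 had a group mean above the negative control median, and the others were at background. In GFP+ cells 3 had an unadjusted p under 0.05 upward and 3 downward, and the differences ran from -0.46 for Ppm1f, a phosphatase that acts on CaM kinase II, to 0.44 for S100a5. In GFP- cells they ran from -0.49 for Pvalb, the calcium buffer parvalbumin, to 0.42 for Kcnip2, a potassium channel partner, with 2 upward and 1 downward at an unadjusted p under 0.05. Both named genes were at background, with group means of 5.40 to 6.09 for Pvalb and 5.32 to 5.85 for Kcnip2. The medians over the 95 genes were 0.01 and -0.01. For the gain 1 gene, and for the pool means 2 upward and 3 downward, had an unadjusted p under 0.05.

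**Figure D4:**
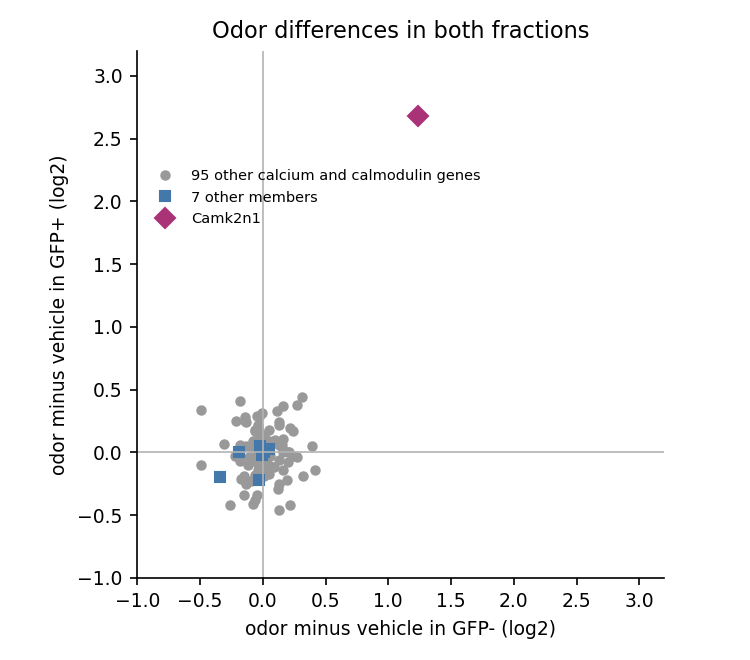
Odor minus vehicle difference (log2) in GFP- cells on the x axis and in GFP+ cells on the y axis for Camk2n1, the 7 other genes and 95 further calcium and calmodulin genes. Camk2n1 lies at 1.24 and 2.68, and all of the other genes lie between -0.49 and 0.44 on both axes.

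Between the fractions, members of these lists did differ, in shares near those of all probe sets. In vehicle pools 10 of 95 were called higher (10.5%) and 9 lower (9.47%) in GFP+ cells, and in odor pools 10 were called higher (10.5%) and 11 lower (11.6%). Without vehicle pool 2 the counts were 11 and 8 in vehicle and 13 and 11 in odor pools. Of all 22206 probe sets, 1759 and 2361 were then called in vehicle and 2971 and 2778 in odor pools. Without odor pool 2 those of the odor pools were 7 and 7, beside 1233 and 2107 of all probe sets. With array medians set equal they were 56 and 7 in vehicle and 50 and 7 in odor pools. All probe sets then had 13003 and 2008, and 13098 and 2009. With receptor medians set equal they were 4 and 12, and 5 and 9, beside 515 and 3237, and 865 and 2414, of all probe sets. The 14 genes called in both stimuli had the same sign under all alternatives run, and 9 of them passed in every one, Aspm, Calb2, Gap43, Mef2c, Pcp4l1, Pde1c, Ppp3ca, Rcan2 and S100a5.

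Among the calcineurin genes, the calcium-dependent phosphatase that often works against CaM kinases, 2 of 11 were called lower in GFP+ cells of vehicle and 3 of 11 of odor pools, and 0 were called higher, beside 11.8% and 11.9% of all probe sets called lower. With 11 genes these counts are not read as a result about the list. They did not change without vehicle pool 2. Rcan2, an inhibitor of calcineurin, differed by -2.62 ± 0.29 in vehicle pools, a 6.16-fold lower signal in GFP+ cells (limma adjusted p = 2.87e-06), and by -2.16 ± 0.29 in odor pools (limma adjusted p = 2.59e-05). Its GFP+ means, 5.17 and 5.41, lay below the negative control medians, so the fold is a fall to background and not a measured ratio. Ppp3ca, a catalytic subunit, differed by -0.80 ± 0.13 and -0.84 ± 0.13 (limma adjusted p = 0.00018 and 0.000106). Ppp3r1, the regulatory subunit, was called in odor pools at -0.41 ± 0.12 (limma adjusted p = 0.0178) and had -0.25 ± 0.12 in vehicle pools (adjusted p = 0.155), and its gain of -0.17 ± 0.17 did not pass. The odor call was lost without odor pool 1, 2 or 3 and with array or receptor medians set equal.

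Of the 14 other CaM kinase genes, 2 were called higher and 1 lower in vehicle pools and 1 higher in odor pools, beside 9.34%, 11.8% and 11.3% of all probe sets, and without vehicle pool 2 the lower count was 0. Dapk1, a death-associated kinase, was higher in GFP+ cells by 0.64 ± 0.14 in vehicle and 0.50 ± 0.14 in odor pools (limma adjusted p = 0.00224 and 0.0137). The odor call was lost without odor pool 2 or 4, and both calls were lost with receptor medians set equal. Camk4, a nuclear CaM kinase, was called higher in vehicle pools at 0.55 ± 0.16 and Camk1d lower at -0.79 ± 0.23 (limma adjusted p = 0.0203 and 0.0224). Neither was called without vehicle pool 1 or 2, Camk4 not without vehicle pool 4 or with receptor medians set equal, and Camk1d not with array medians set equal or after quantile normalization. The vehicle means of Camk4 were 5.63 in GFP- and 6.18 in GFP+ cells. Both lay below the negative control medians of those arrays, so its signal was at background.

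Some proteins with an IQ motif hold calmodulin and change how freely it is available, and whether the product of each listed gene does was not measured. Of the 7 genes measured, 1 was called higher and 3 lower in vehicle pools and 1 higher and 2 lower in odor pools. Of all probe sets 9.34% and 11.8% were called in vehicle and 11.3% and 11.9% in odor pools, and without vehicle pool 2 the vehicle counts were 1 and 2. Pcp4l1 was higher in GFP+ cells by 1.49 ± 0.15 in vehicle and 1.60 ± 0.15 in odor pools (limma adjusted p = 6.67e-07 and 2.66e-07). Gap43, also a marker of immature neurons, differed by -2.50 ± 0.36 and -2.12 ± 0.36 (limma adjusted p = 5.03e-05 and 0.000285). Aspm, a spindle protein of dividing cells, differed by -1.40 ± 0.21 and -1.74 ± 0.21, with GFP+ means of 5.31 and 4.90 that lay below the negative control medians. Nrgn, neurogranin, was called in vehicle pools at -0.44 ± 0.12 and had -0.10 ± 0.12 in odor pools, and its gain of 0.34 ± 0.17 did not pass (limma adjusted p = 0.999). The vehicle call was lost without vehicle pool 1, 2 or 3, with array medians set equal, after quantile normalization and with only the groups compared in the fit. Markers of immature neurons, 12 measured, averaged 12.87 to 13.58 on GFP- and 11.76 to 12.29 on GFP+ arrays, and those of cycling cells, 6 measured, 7.73 to 8.76 and 5.38 to 5.81. Their part in these differences was not tested.

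Among 16 genes of olfactory transduction and calcium extrusion that calmodulin acts on or that clear calcium, 3 were called higher in GFP+ cells of vehicle pools and 5 of odor pools, with 1 lower in odor pools. Of all probe sets 9.34% and 11.3% were called higher and 11.9% lower in odor pools, and without vehicle pool 2 the higher counts were 4 and 6. Pde1c, the calmodulin-dependent phosphodiesterase of olfactory cilia, was higher by 0.69 ± 0.10 and 0.60 ± 0.10 (limma adjusted p = 4.62e-05 and 0.000187). Slc8a1, a sodium/calcium exchanger, was higher by 0.90 ± 0.18 and 1.02 ± 0.18 (limma adjusted p = 0.000944 and 0.000307). Ano2, the calcium-activated chloride channel, was higher by 0.36 ± 0.11 and 0.48 ± 0.11, and its vehicle call was lost without vehicle pool 1, 3 or 4, without odor pool 2, with the pool block, with receptor medians set equal and with only the groups compared in the fit. The Slc8a1 call in vehicle pools was lost with receptor medians set equal.

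Of 18 calcium sensors and buffers, 2 were called higher and 2 lower in each stimulus, near the shares of all probe sets (9.34% and 11.8% in vehicle, 11.3% and 11.9% in odor pools). Without vehicle pool 2 the higher counts were 3 in vehicle and 4 in odor pools. S100a5, the gene the reporter follows, was higher in GFP+ cells by 0.87 ± 0.12 and 0.99 ± 0.12, a direction the sort itself sets. Calb2, calretinin, had a difference of -3.47 ± 0.32 in both stimuli (limma adjusted p = 2.89e-07 and 2.86e-07). Of 18 transcription regulators that respond to CaM kinases, 1 was called higher and 1 lower in each stimulus, and without vehicle pool 2 there were 2 lower in vehicle pools. Mef2c differed by -1.85 ± 0.27 and -1.74 ± 0.27 and Hdac9 by 0.56 ± 0.12 and 0.45 ± 0.12. The odor call of Hdac9 was lost without odor pool 2 or 4, and both of its calls with receptor medians set equal. Of the 7 phosphatase genes, Ppm1e was called higher in vehicle pools and Ppp1cc and Ppp2cb lower in odor pools, and these calls were lost without vehicle pool 1, 2 or 3 and with receptor medians set equal for Ppm1e, and without odor pool 2 or 3 and with array medians set equal for Ppp1cc. The call of Ppp2cb was lost with the pool of mice as a block, without odor pool 1, 2 or 3 and with array or receptor medians set equal. Of the 4 calmodulin-like genes, 0 were called in either stimulus by limma, with 1 at an unadjusted p under 0.05 in odor pools and none in vehicle pools. Their group means, from 3.72 to 5.91, all lay below the negative control medians. A lack of calls therefore says nothing about these genes.

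The genes most like Camk2n1 over the 16 arrays were sought among 12608 probe sets with 1 symbol and a mean above the negative controls. By Pearson's r on the raw signals they were Pcdh10 (0.889), Hspa9 (0.833), Cadm3 (0.822), Sema7a (0.819) and Rem2 (0.805). After each fraction was centred on its own mean they were Sema7a (0.929), Pcdh10 (0.917), Kcnn2 (0.893), Dyrk4 (0.867) and S100a5 (0.856). The 16 points share pools and fall into the 4 groups, so an r of this kind follows differences between groups and is given with no p. The 7 other genes had r from -0.429 (Camk2g) to 0.227 (Calm2) on the raw signals.

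These genes were picked for a profile that follows the groups of the same arrays, so their odor differences are a description with no test. Pcdh10, an adhesion protein gene, was higher with the odor by 3.99 ± 0.38 (SE) in GFP+ and 3.28 ± 0.38 in GFP- cells. Sema7a, an axon guidance gene, was higher by 1.39 ± 0.15 and 0.97 ± 0.15. In the vehicle pools GFP+ minus GFP- was 1.13 ± 0.38 for Pcdh10 and 0.67 ± 0.15 for Sema7a, beside -0.47 ± 0.28 for Camk2n1, and the difference between the genes was not tested. The gains of Pcdh10 and Sema7a were 0.71 ± 0.54 and 0.42 ± 0.22, beside 1.44 ± 0.39 for Camk2n1.

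The other genes of the set had smaller odor differences. Cadm3, an adhesion protein gene, had 0.92 ± 0.16 in GFP+ and 0.66 ± 0.16 in GFP- cells, and Rem2, a small GTPase gene, had 0.76 ± 0.13 and 0.24 ± 0.13. S100a5 had 0.44 ± 0.12 and 0.31 ± 0.12. Kcnn2, a calcium-activated potassium channel gated through calmodulin, had 0.36 ± 0.11 and 0.31 ± 0.11, while its GFP+ arrays were above the GFP- arrays by 0.99 ± 0.11 in vehicle and 1.03 ± 0.11 in odor pools.

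**Figure D5:**
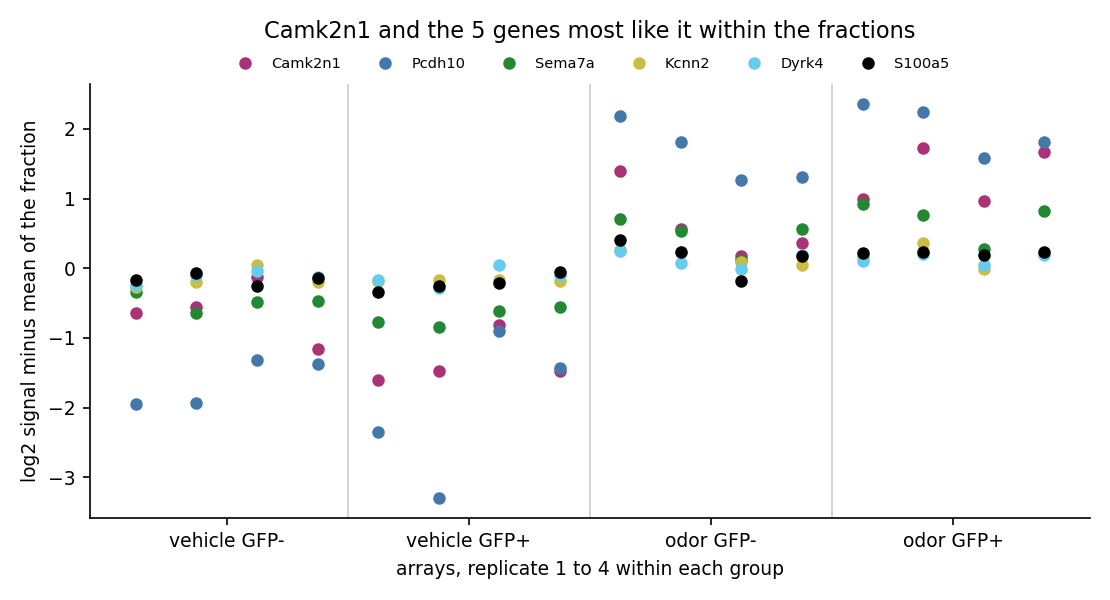
Log2 signal minus the mean of its fraction on the 16 arrays for Camk2n1 and the 5 genes most like it after this centring, with arrays in the order of replicates within each group. Camk2n1 (purple) and Pcdh10 (blue) take the widest range, and Kcnn2, Dyrk4 and S100a5, which take a narrow range, also have higher means on odor than on vehicle arrays in both fractions.

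The 3 genes on either side of Camk2n1 in RefSeq's gene order had no call in the odor comparisons. Cda, Fam43b, Mul1, Vwa5b1, Ubxn10 and Pla2g2c differed between odor and vehicle by -0.14 to 0.59 in GFP+ and by -0.24 to 0.07 in GFP- cells. By limma 0 of 6 passed in either. Of all probe sets 0.0766% were called higher and 0% lower in GFP+ cells, and 0.00901% and 0.0405% in GFP- cells. Group means of Cda, Fam43b and Pla2g2c, from 4.18 to 5.88, lay below the negative control medians. Those of Vwa5b1 (5.79 to 6.04) and Ubxn10 (5.95 to 6.53) lay near them. A lack of calls therefore says little about these genes, and the Ubxn10 difference lies near background. Ubxn10, at 0.59 ± 0.21 in GFP+ cells (limma adjusted p = 0.572), was the single neighbour with an unadjusted p under 0.05 there, and none had one in GFP- cells. Mul1, a mitochondrial ubiquitin ligase gene, was higher in GFP+ than in GFP- cells by 0.47 ± 0.16 in vehicle and 0.64 ± 0.16 in odor pools (limma adjusted p = 0.0486 and 0.00883). Its vehicle call was lost without vehicle pool 1, 3 or 4, without odor pool 2, 3 or 4 and with the pool block, and its odor call without odor pool 2 or 3.

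Markers of cell types, olfactory neurons included, were set beside the odor differences of Camk2n1. Of 98 measured markers in 13 lists, 0 passed in odor minus vehicle by limma in GFP+ cells (6 at an unadjusted p under 0.05) or in GFP- cells (2 at an unadjusted p under 0.05). Of all probe sets 0.0766% were called higher and 0% lower in GFP+ cells, and 0.00901% and 0.0405% in GFP- cells, so this is close to the background. In GFP+ odor cells 8 of 9 lymphocyte, 5 of 6 endothelial and 4 of 6 cycling cell markers lay below the negative controls. So did 4 of 5 horizontal basal, 5 of 9 microvillar and 4 of 5 ensheathing glia markers. The counts were 3 of 12 for neutrophil, 2 of 5 for stroma, 1 of 8 for sustentacular, 1 of 2 for erythroid and 0 of 9 for macrophage markers. They were 0 for mature and for immature neurons. In GFP- cells neutrophil markers averaged 13.54 to 14.79 on odor and 14.20 to 14.84 on vehicle arrays, and macrophage markers 9.49 to 10.39 and 9.77 to 10.42. In GFP+ cells macrophage markers averaged 7.74 to 7.99 on odor and 7.97 to 8.41 on vehicle arrays, with a median difference of -0.36 over 9 markers, while neutrophil markers averaged 6.75 to 7.68 and 6.56 to 7.52. The differences of the 98 markers lay between -0.57 and 0.46 in GFP+ and between -0.49 and 0.51 in GFP- cells, beside 2.68 and 1.24 for Camk2n1, and their part in its difference was not tested.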

How the data were processed

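The deposited table holds log2 signals of 28846 features on 16 arrays, made by the authors with Affymetrix Expression Console per the submitters' processing notes. Its version, its algorithm and the genome build were not given in the sources used here. All 22206 probe sets that are not controls were tested with no further scaling or filter. Group means were fitted with limma 3.58.1 in R 4.3.3 (lmFit, eBayes) to all 16 arrays, and the mean of both fractions to 8 pool values. Tests were two-sided, and an adjusted p (Benjamini-Hochberg over all tested probe sets) under 0.05 was the threshold. The fit was tested on simulated data. SD and SE are as stated beside each value, and intervals cover 95%.

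The members, gene lists and comparisons were chosen with earlier results of these data known. Named were all members, up to 4 called genes of a pathway list with the largest differences, the 5 probe sets most like Camk2n1 by each measure, and the 3 neighbours on either side from RefSeq (GRCm38.p6), used for gene order alone. Gene names come from the platform annotation. Fractions of a pool come from the same mice, so the pool pairs them (r of deviations 0.0119 to 0.224). Same-numbered odor and vehicle arrays had r of 0.186 to 0.29 in GFP- cells, over 0.1 in every pair, so the number was taken to pair those. In GFP+ cells r was 0.0311 to 0.256, and the number was not taken to pair them. The main fit of the 4 groups had no block, so its tests use neither pairing. Both blocks were run only as alternatives. Scaling, a filter on dim probe sets, the variance model, the arrays in the fit, both blocks and each pool left out were tried as alternatives.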

Additional observations from a re-analysis of the deposited data

Results flagged for a closer look

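In 3 of the 32 groups of 4 arrays (8 genes by 4 groups), 1 array lay far from the other arrays of its group by Dixon's criterion, which compares the gap with the group's range. Chance gives this in about 5% of groups. All 3 are vehicle arrays. Camk2n1 was 8.68 in GFP+ cells of vehicle pool 3, with a gap of 0.836 of the range above the other vehicle GFP+ arrays, and still below every odor array. Camk2a was 10.62 in GFP- cells of the same vehicle pool 3, with a gap of 0.919 of the range, and this array is the one that made the vehicle difference of Camk2a run against the other pools. Camk2g was 10.28 in GFP- cells of vehicle pool 4, below the other 3 arrays at 10.57, with a gap of 0.977 of the range.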

How the results depend on the processing

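Across 8 alternatives of processing and 8 that leave out a pool, Camk2n1 kept its sign in all 88 values. Many of these could not have turned. The filter on dim probe sets, the variance model, the arrays in the fit and the blocks leave its group differences unchanged. Leaving out a pool could not turn an odor difference, since no odor array overlapped with a vehicle array. The odor difference ran from 2.55 to 2.86 in GFP+ cells, from 0.99 to 1.41 in GFP- cells and from 1.85 to 2.13 for the pool means. The gain ran from 1.24 to 1.81, and the sort from 0.77 to 1.33 in odor and from -0.70 to -0.13 in vehicle pools. In the odor comparisons and the gain, 0 of the 7 tested genes passed under any alternative, the replicate number as a block and the pool block included. The number passing in the vehicle sort was 0 as deposited, 5 with array medians set equal, 1 after quantile normalization, 1 with receptor medians set equal, 1 without dim probe sets, 0 with the pool block and 0 to 2 with a pool left out. In the odor sort it was 2 as deposited, 5 with array medians set equal, 0 with receptor medians set equal, 0 with the pool block as replicate block, and 0 to 2 with a pool left out. Camk2d turned from 0.00 to 0.34 and from -0.02 to 0.31 with array medians set equal, which by construction raises every GFP+ minus GFP- difference: the median over all probe sets went from 0.113 to 0.460 in vehicle and from 0.135 to 0.461 in odor pools. Calls between the fractions therefore depend on an assumption about total RNA that these data do not settle. A further 66 of 704 differences turned sign while neither value passed. Probe sets of a gene could not be set against each other, since each had 1. For other calls that were lost, the cause was not tested. Signal over background limits Camk2b, Camk2n2 and, in vehicle GFP+ cells, Camk2n1 among the members. Among the lists it limits Camk4, Rcan2, Aspm, Pvalb, Kcnip2, the calmodulin-like genes and the other genes without a group mean above the controls. Among the neighbours of Camk2n1 it limits all but Mul1. With 4 pools per group small differences are not resolved.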
